A study of Mus musculus with 9 samples.

Results

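Interferon-stimulated genes were examined in CXCL12-abundant reticular (CAR) cells, stromal cells of the bone marrow that make the chemokine Cxcl12 and support blood stem cells and B cell development. The 44 genes of the list were chosen by name, with earlier results of these data known, and were divided by role into 9 sensors of foreign nucleic acid, 19 antiviral effectors and 16 regulators. A gene was measured where a probe set of the array carried its symbol and no other, which held for 40 of the 44 (all 9 sensors, 15 effectors and all 16 regulators) among 19938 genes measured in this way. Isg15, Gbp2 and Igtp lay only on probe sets that carry several symbols, and no probe set was listed for Ifi44, so these effectors have no value here. Irf1 had 2 probe sets and each other measured gene had 1.

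The cells came from mice carrying a green fluorescent protein gene in 1 copy of the Cxcl12 locus (Cxcl12+/gfp), a genotype shared by both groups, and were sorted as lineage-negative cells bright for the protein. One group had received granulocyte colony-stimulating factor (G-CSF), the cytokine that drives neutrophil output and releases stem cells from the marrow, at 250 µg/kg per day for 5 days (5 arrays). The other had received phosphate-buffered saline (PBS) for 5 days (4 arrays), and each was hybridised to a Mouse Gene 1.0 ST array. The titles call the arrays biological replicates without naming the animals or pools behind them, so a p-value here reflects how much these arrays vary, which may be technical. The source-name field of the samples speaks of pre-B cell colonies, and 4 samples are given an Hspa9+/- genotype there, which goes against their titles and protocols, so the groups follow the titles. With 1 functional Cxcl12 copy in all animals, neither group is a wild type.

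Interferons are secreted cytokines that warn cells of infection. Type I interferon binds the receptor made of Ifnar1 and Ifnar2, whose kinases Jak1 and Tyk2 phosphorylate Stat2. Stat2 joins Irf9 in a complex that binds the interferon-stimulated response element (ISRE) in the promoters of its targets. Type II interferon acts through Ifngr1, Ifngr2, Jak1 and Jak2, and its targets carry the gamma-activated site (GAS). Many of the induced genes detect viral RNA, block its translation or copying, or feed back on the pathway, and a basal level of the program is kept in many tissues without infection.

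The ISRE core was searched in the RefSeq promoters of the members (assembly GRCm38.p6, 250 bases before to 50 bases after the start of transcription) to show which members carry the element that names the group. The letters searched were GAAANNGAAA for the ISRE core and TTCNNNGAA for the GAS core, on both strands, and overlapping matches were counted separately. A promoter was given for 35 of the 44 members. The ISRE core was present in 16 of them (45.7%), against 3.99% of 27025 genes and 3.44% of all 32851 promoters of that length. The GAS core was present in 10 (28.6%), against 9.55% of genes and 8.3% of promoters, and 5 members held both. By role, the ISRE core was found in 4 of 6 sensor promoters, 9 of 16 effector promoters and 3 of 13 regulator promoters. The matches below are those of Ifit3, which was called after G-CSF, and of 5 members that were not. Of these 5, Ifit1 had the most negative change and Stat2 belongs to the transcription complex itself. The other 3 (Oas3, Rsad2 and Irgm1) lay between -0.32 and 0.15. Each line is a stretch of 30 bases on the strand of the gene, 5′ to 3′, with the match in capitals. Capitals that begin with TTTC are the core on the opposite strand.
Ifit3, chr19:34583363-34583392, plus strand: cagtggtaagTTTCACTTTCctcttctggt
Ifit3, chr19:34583397-34583426, plus strand: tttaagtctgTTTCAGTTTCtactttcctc
Ifit1, chr19:34640775-34640804, plus strand: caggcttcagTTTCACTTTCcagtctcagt
Ifit1, chr19:34640794-34640823, plus strand: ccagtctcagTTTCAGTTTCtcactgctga
Stat2, chr10:128270266-128270295, plus strand: cgcaccctggTTTCAGTTTCctttccctag
Oas3, chr5:120777715-120777744, minus strand: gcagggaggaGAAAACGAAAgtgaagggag
Rsad2, chr12:26456553-26456582, minus strand: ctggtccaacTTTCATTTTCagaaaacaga
Irgm1, chr11:48871425-48871454, minus strand: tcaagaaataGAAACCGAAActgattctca

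Ifit3 and Ifit1 each held 2 matches, whose first bases lay 156 and 122 bases before the start in Ifit3 and 104 and 85 bases before it in Ifit1. The single match of Stat2 began 222 bases before its start, those of Oas3 and Rsad2 75 and 120 bases before, and the Irgm1 match shown 24 bases before. A match wholly before the start was found in 13 members, 7 of them with more than 1. Rtp4 has no entry among the promoters. A match describes the letters of these windows only.

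After G-CSF, 2 members fell, the effectors Ifit3 and Rtp4, and none rose. Ifit3 belongs to the tetratricopeptide family that binds foreign RNA and holds back its translation, and it was 3.71-fold lower. Rtp4, an interferon-induced protein that also helps receptors reach the cell surface, was 1.85-fold lower. The other 38 measured members did not pass the test (limma on log2 intensity over all 21789 probe sets with 1 symbol, adjusted p under 0.05, two-sided). Among all tested probe sets, 0.877% were called lower and 0.743% higher under the same rule. In sorted cells profiled in bulk, fewer cells of a type and less RNA per cell cannot be told apart.

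Most members nevertheless had a lower mean after G-CSF. The change was below 0 in 35 of 40 members, against 48.7% of all tested probe sets, and its median was -0.29 log2 against 0.01 for all tested probe sets. By role, it was below 0 in 6 of 9 sensors (median -0.10), 14 of 15 effectors (median -0.36) and 15 of 16 regulators (median -0.28). At an unadjusted p under 0.05 in limma, 14 members were lower (2 sensors, 7 effectors and 5 regulators) and 0 were higher, where 4.81% and 4.41% of all tested probe sets were lower and higher. All G-CSF arrays lay below all PBS arrays for 4 members, Ifit1, Ifit3, Rtp4 and Herc6, and above them for 0. Among all tested probe sets, these shares were 2.46% below and 2.18% above. Averaged over the 40 members, the PBS arrays ranged from 6.45 to 6.71 and the G-CSF arrays from 6.11 to 6.34 on the log2 scale, so the groups did not overlap. Members of a list share regulators and arrays, so these counts and averages describe the list and were not tested.

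**Figure D1:**
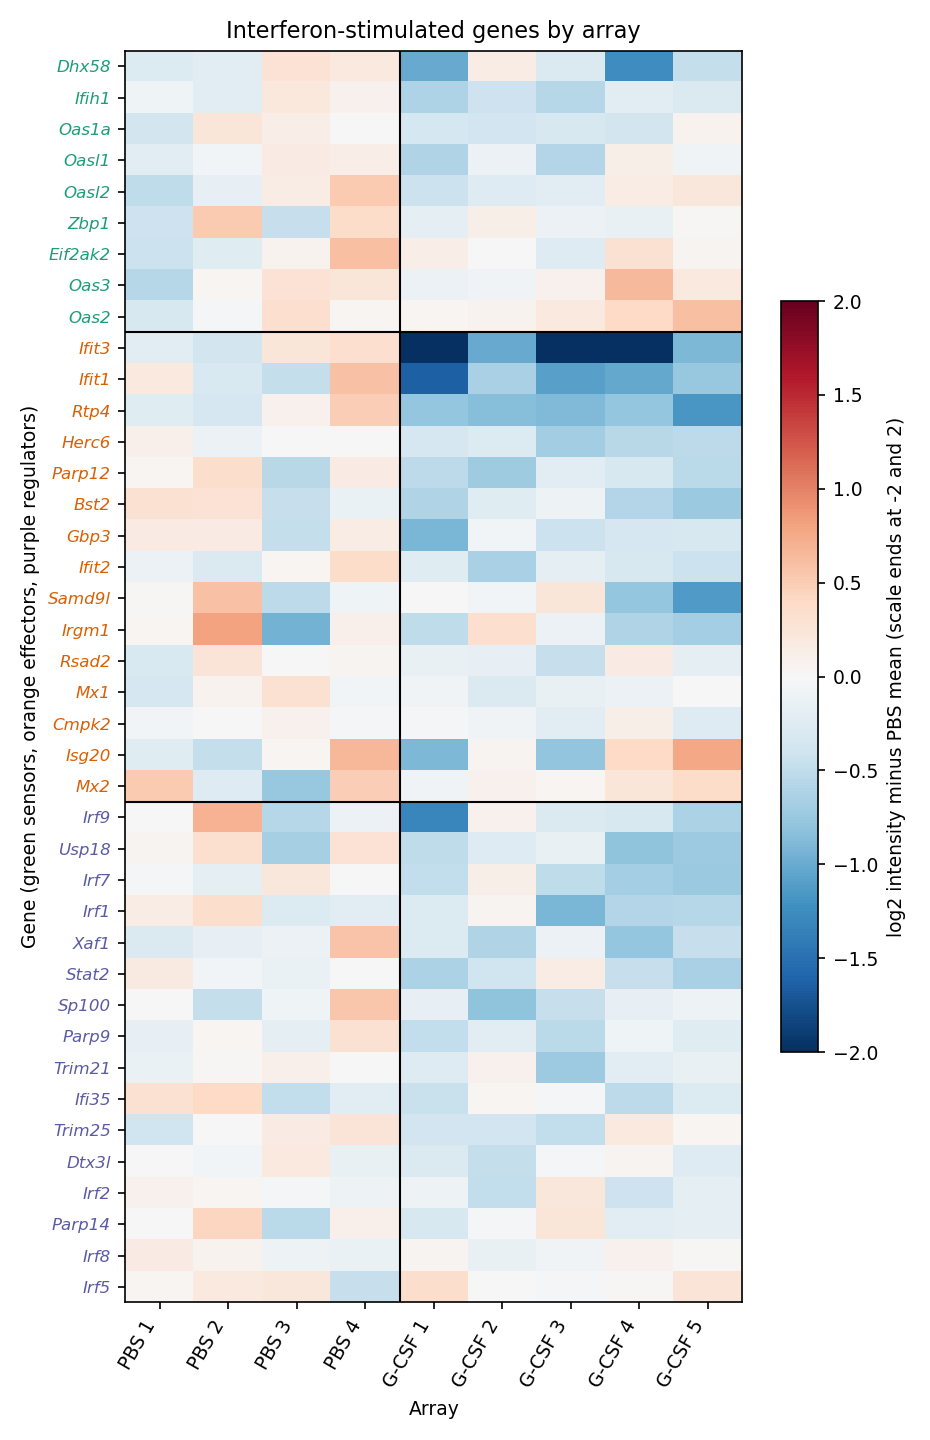
Deviation of each measured interferon-stimulated gene (rows, grouped as sensors, effectors and regulators and sorted by change) from its PBS mean in each of the 9 arrays (columns), in log2 units, blue lower and red higher. Ifit3 is the darkest row, at 4.52 to 6.24 in the G-CSF arrays against 6.78 to 7.49 in PBS, while the lower sensor rows (Oas2, Oas3, Eif2ak2) show no blue block under G-CSF.

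**Figure D2:**
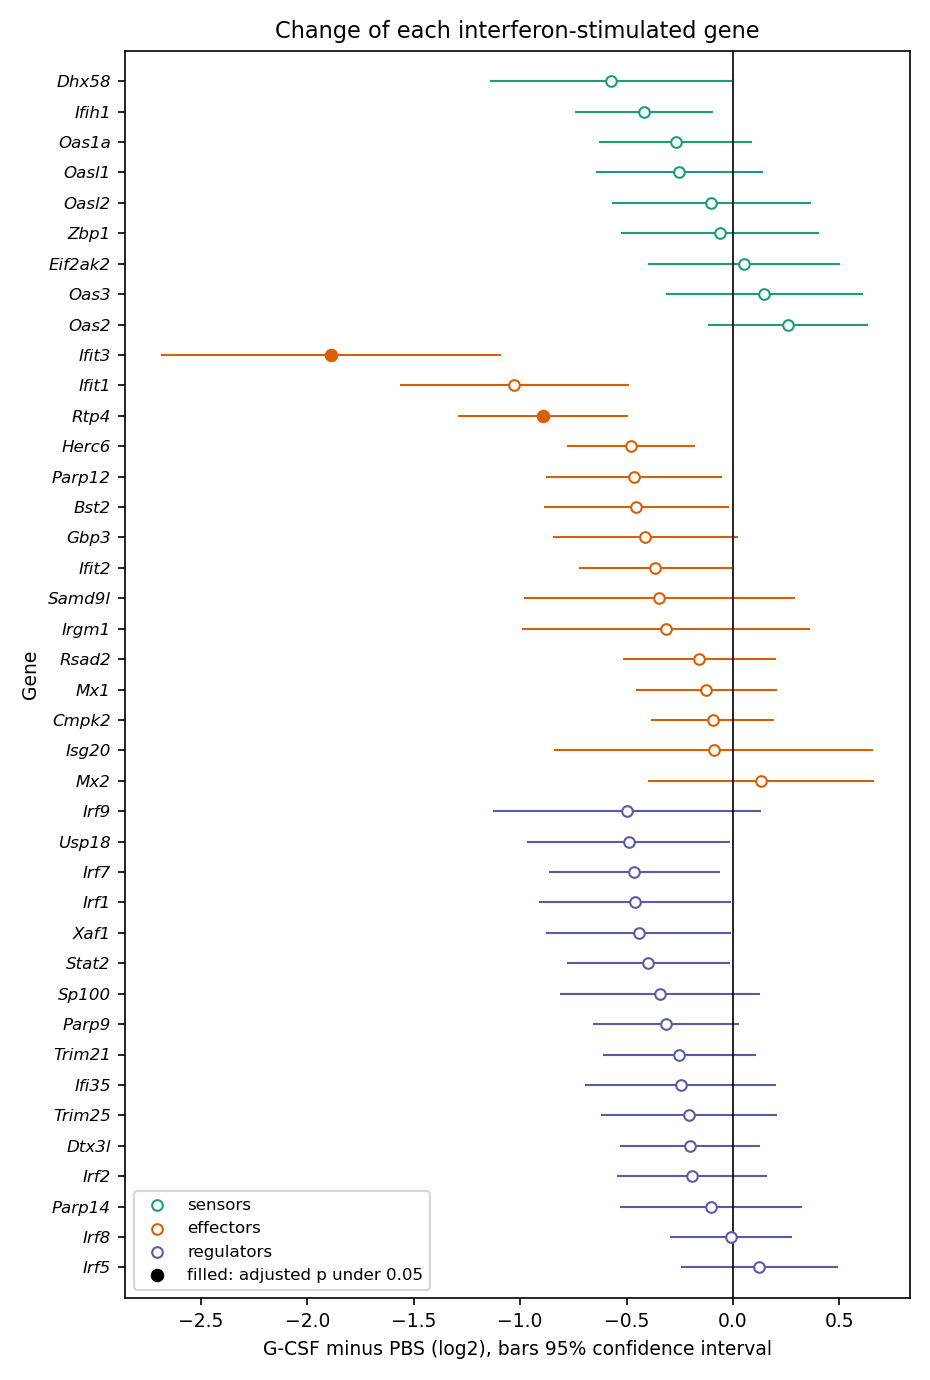
Change of each measured member (G-CSF minus PBS, log2) with its 95% confidence interval from limma, grouped by role; filled points passed adjusted p under 0.05. Ifit3 (-1.89) and Rtp4 (-0.89) are the filled points, and 35 of 40 points lie left of 0.

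Among the effectors, Ifit3 had the largest difference. It measured 6.93, 6.78, 7.38 and 7.49 in PBS arrays 1 to 4, and 4.52, 6.14, 4.67, 4.69 and 6.24 in G-CSF arrays 1 to 5 (log2 intensity). Every G-CSF array lay below every PBS array, with G-CSF 2 and 5 nearer to the PBS values than the other 3. The mean went from 7.14 ± 0.34 (SD, n = 4) to 5.25 ± 0.86 (n = 5), a change of -1.89 (SE 0.37, 95% confidence interval -2.69 to -1.09, limma adjusted p = 0.0227). The call was lost when any of PBS 1, 3 or 4 or G-CSF 1, 3 or 4 was left out, with limma adjusted p from 0.00853 to 0.0725 over the 9 fits and a change of -2.14 to -1.71. It was also lost when all 35553 probe sets entered the fit (limma adjusted p = 0.0985).

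Ifit1, which recognises viral RNA by its cap, showed the same order of groups at a smaller size. It measured 6.64, 6.13, 5.96 and 7.02 in PBS arrays 1 to 4, and 4.80, 5.80, 5.36, 5.42 and 5.68 in G-CSF arrays 1 to 5. The groups did not overlap, and G-CSF 2 and 5 were again the highest of the treated arrays. The difference of -1.03 (SE 0.25, interval -1.57 to -0.49) did not pass the test, with a limma adjusted p of 0.0682. It passed without PBS 3 (-1.19, limma adjusted p = 0.0468) and with arrays weighted by their quality (limma adjusted p = 0.0438). Ifit2, the third measured gene of the family, differed by -0.36 (limma adjusted p = 0.534).

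Ifit3b, a near copy of Ifit3 in the same gene cluster that is no member of the list, was looked up after the Ifit3 value was seen. It measured 3.60, 4.14, 4.36 and 3.64 in PBS and 3.09, 2.98, 3.07, 3.36 and 2.47 in G-CSF. It fell by 0.94 on the log2 scale (SE 0.21, limma adjusted p = 0.0478). Both means, 3.93 in PBS and 2.99 in G-CSF, lay below 4.21, the lower quartile of the mean levels of all tested probe sets. The call thus rests on low signals. Whether transcripts of one copy bind probes of the other was not tested, so the pair does not count as separate evidence.

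Rtp4 fell with less spread between the treated arrays than Ifit3. It measured 8.38, 8.28, 8.72 and 9.12 in PBS arrays 1 to 4, and 7.85, 7.77, 7.74, 7.85 and 7.45 in G-CSF arrays 1 to 5. All treated arrays were below all controls, and PBS 4 was the highest of the 9. The mean went from 8.62 ± 0.38 (n = 4) to 7.73 ± 0.16 (n = 5), a change of -0.89 (SE 0.18, interval -1.29 to -0.49, limma adjusted p = 0.0312). The call was lost without PBS 3, without PBS 4 and without any single G-CSF array, over a range of -1.01 to -0.72 (limma adjusted p up to 0.0821), and when all probe sets entered the fit (limma adjusted p = 0.0986). It was also lost when the closely alike arrays G-CSF 4 and 5 were averaged into 1 (limma adjusted p = 0.0641).

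Herc6, the mouse ligase that attaches Isg15 to proteins, was the fourth gene without overlap. It measured 6.54, 6.32, 6.44 and 6.44 in PBS and 6.10, 6.15, 5.73, 5.88 and 5.92 in G-CSF. The spread within each group was small, at an SD of 0.09 and 0.17, but the difference of -0.48 did not pass (limma adjusted p = 0.148).

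The remaining 11 effectors were measured without a call and with overlapping groups. Parp12, which inhibits viral replication, differed by -0.47, and Bst2 (tetherin), which holds budding virus at the cell surface, by -0.45. Gbp3 differed by -0.41, Samd9l, a restriction factor of poxviruses, by -0.35, and Irgm1, a GTPase of intracellular pathogen defence, by -0.32. Differences between -0.16 and -0.09 were seen for Rsad2 (viperin), which makes a chain-terminating nucleotide, for Mx1, a GTPase that traps viral nucleocapsids, for Cmpk2, a nucleotide kinase located beside Rsad2 in the genome, and for Isg20, an exonuclease whose sign turned in several alternatives. Mx2 was the only effector with a higher treated mean (0.13). It measured 4.95, 4.17, 3.67 and 4.91 in PBS and 4.36, 4.51, 4.46, 4.66 and 4.78 in G-CSF, and PBS 3 was the lowest array. Without PBS 3 the Mx2 difference was -0.12. Some of these levels were low. The lower quartile of the mean levels of all tested probe sets was 4.21 and the median 5.42. Mx1 (3.06 in PBS and 2.93 in G-CSF) and Cmpk2 (4.01 and 3.92) lay below that quartile, and Rsad2 (4.31 and 4.15) lay near it. Of the 40 measured members, 9 had a mean below that median. A difference near 0 at a low level does not show that a gene was expressed and unchanged.

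**Figure D3:**
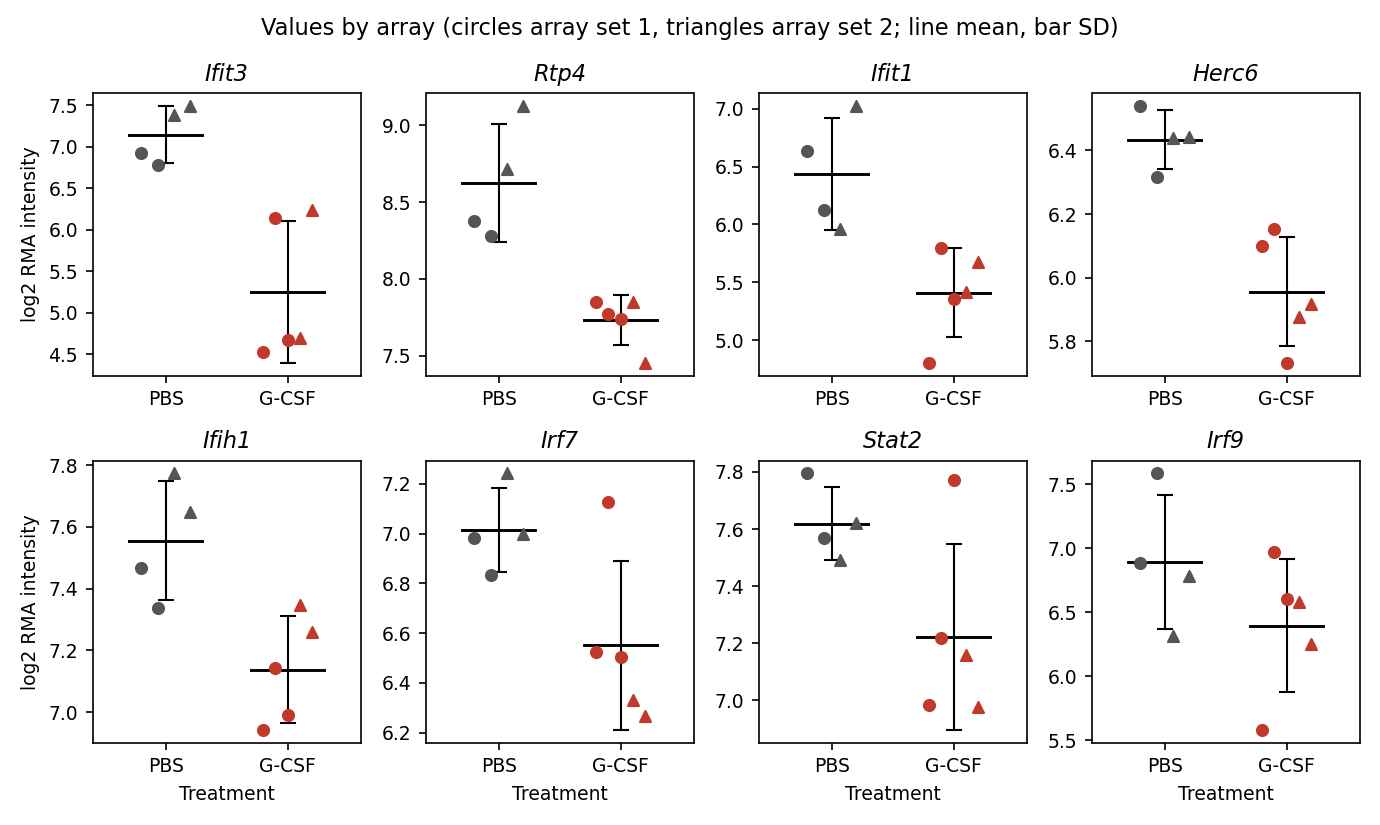
Log2 intensity in each array for 8 interferon-stimulated genes, PBS (grey, 4 arrays) and G-CSF (red, 5 arrays), with the mean (line) and SD (bar); circles are array set 1 and triangles array set 2, and each panel has its own axis, which does not start at 0. The groups are apart for Ifit3, Rtp4, Ifit1 and Herc6 and overlap for Ifih1, Irf7, Stat2 and Irf9, where G-CSF 2 at 7.13 (Irf7) lies among the PBS values.

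The sensors did not move as a block. Ifih1 (MDA5), a helicase that recognises long double-stranded RNA, measured 7.47, 7.34, 7.77 and 7.65 in PBS and 6.94, 7.14, 6.99, 7.35 and 7.26 in G-CSF. The groups met at 1 point, where G-CSF 4 was just above PBS 2, and the difference was -0.42 (SE 0.15, limma adjusted p = 0.304). Dhx58 (LGP2), which tunes the RNA helicases, measured 4.89, 4.95, 5.45 and 5.35 in PBS and 4.15, 5.31, 4.87, 3.93 and 4.69 in G-CSF. Its treated arrays were widely spread (SD 0.56), with G-CSF 2 inside the control range, and the difference of -0.57 had a limma adjusted p of 0.534.

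The oligoadenylate synthetases make the messenger that activates RNase L, and they differed in sign. Oas1a measured 5.11, 5.73, 5.62 and 5.47 in PBS and 5.13, 5.10, 5.16, 5.11 and 5.55 in G-CSF, a difference of -0.27. Oas2 measured 4.94, 5.22, 5.60 and 5.31 in PBS and 5.31, 5.33, 5.46, 5.66 and 5.86 in G-CSF, a difference of 0.26. Oas3 measured 3.96, 4.57, 4.83 and 4.78 in PBS and 4.42, 4.46, 4.62, 5.19 and 4.74 in G-CSF, a difference of 0.15. The groups overlapped for all 3 genes, and the limma adjusted p-values were 0.759, 0.793 and 0.955. The related Oasl1 and Oasl2 differed by -0.25 and -0.10. Eif2ak2 (PKR), the kinase that stops translation on binding double-stranded RNA, measured 5.51, 5.69, 6.02 and 6.55 in PBS and 6.08, 5.95, 5.69, 6.25 and 6.0 in G-CSF, with a difference of 0.05. Zbp1, a sensor of left-handed nucleic acid, differed by -0.06. The signs of Eif2ak2, Oas3, Zbp1 and Oasl2 turned when single arrays were left out, so these genes have no settled direction.

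Among the regulators, the components of the ISRE-binding complex had lower means without a call. Stat2 measured 7.79, 7.57, 7.49 and 7.62 in PBS and 6.98, 7.22, 7.77, 7.16 and 6.98 in G-CSF. Only G-CSF 3 lay within the PBS range, and the difference was -0.40 (SE 0.18, limma adjusted p = 0.510). Irf9 measured 6.88, 7.59, 6.32 and 6.78 in PBS and 5.58, 6.97, 6.60, 6.58 and 6.25 in G-CSF. With -0.50 it had the most negative difference of the regulators and a wide SE of 0.29 (limma adjusted p = 0.728), and G-CSF 1 was far below the rest.

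The interferon regulatory factors differed among themselves. Irf7, the amplifier of type I interferon production, measured 6.98, 6.83, 7.24 and 7.0 in PBS and 6.52, 7.13, 6.50, 6.33 and 6.27 in G-CSF. Of the treated arrays, 4 lay below every control and G-CSF 2 lay among them (difference -0.46, SE 0.18, limma adjusted p = 0.409). Irf1, a factor of the interferon-gamma response, measured 9.10, 9.30, 8.68 and 8.74 in PBS and 8.69, 9.0, 8.04, 8.37 and 8.38 in G-CSF. The groups overlapped, its difference was -0.46 (limma adjusted p = 0.524), and that of its other probe set -0.49 (limma adjusted p = 0.428). Irf2, which competes with Irf1, differed by -0.19, and Irf8, a factor of myeloid and B cells, by -0.01. Irf5 was the only regulator with a higher treated mean (0.12), measuring 5.39, 5.55, 5.58 and 4.90 in PBS and 5.71, 5.37, 5.34, 5.38 and 5.62 in G-CSF. PBS 4 was the lowest of these, and the difference was -0.03 without it.

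Usp18 removes Isg15 from proteins and blocks the type I receptor. It measured 6.14, 6.40, 5.42 and 6.37 in PBS and 5.57, 5.82, 5.93, 5.28 and 5.36 in G-CSF. PBS 3 lay within the treated range and the other 3 controls lay above it (difference -0.49, limma adjusted p = 0.520). Xaf1, a promoter of apoptosis, differed by -0.44, and Sp100, a nuclear body protein, by -0.34. Parp9 and its partner Dtx3l, a ubiquitin ligase, differed by -0.32 and -0.20, and Parp14 by -0.10. The ubiquitin ligases Trim21, an antibody receptor of the cytosol, and Trim25, which activates the helicase Ddx58, differed by -0.25 and -0.21, as did Ifi35 by -0.25. Across these 8 genes the limma adjusted p-values were 0.528 or higher.

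Members with and without the ISRE core were set side by side. The 13 measured members with a match had a median change of -0.32 (range -1.89 to 0.15, 11 below 0), and the 18 measured members with a promoter but no match had a median of -0.30 (range -0.50 to 0.12, 17 below 0). Ifit3 and Ifit1, whose matches are printed above, hold the extreme of the first set, and Oas3, with a match 75 bases before its start, holds the other end. For the GAS core the medians were -0.25 in 9 members with a match and -0.35 in 22 without. No test was made of these differences.

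The arrays formed a pair of sets on the first principal component (34.9% of the variance), a split that no label names. The sets were thus taken from the same values that were tested. Set 1 was PBS 1 and 2 with G-CSF 1 to 3, and set 2 was PBS 3 and 4 with G-CSF 4 and 5, so each held both groups. PBS 3 stood apart within set 2, and G-CSF 4 and 5 were the most alike of any same-group arrays (SD of their log2 differences 0.279, against 0.372 to 0.670 for other pairs). Median changes of the members were -0.24 in set 1 and -0.21 in set 2. The change was below 0 in both sets for 31 of 40 members, against 25.1% of all tested probe sets, and above 0 in both for 3 (Oas2, Oas3 and Irf5). Ifit3 differed by -1.74 in set 1 and -1.97 in set 2, and Ifit1 by -1.06 and -0.94. Rtp4 differed by -0.54 and -1.27, Dhx58 by -0.14 and -1.10, Irf7 by -0.19 and -0.82, Xaf1 by -0.10 and -0.84, and Irf9 by -0.85 and -0.14. No member passed within either set alone (Ifit3 limma adjusted p = 0.157 and 0.229, Rtp4 0.251 and 0.138). With the set as a block, Ifit3 (limma adjusted p = 0.0144) and Rtp4 (0.0182) were again the called members, where 1.43% of all tested probe sets were lower and 1.32% higher, and Ifit1 lay just outside (0.0520).

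**Figure D4:**
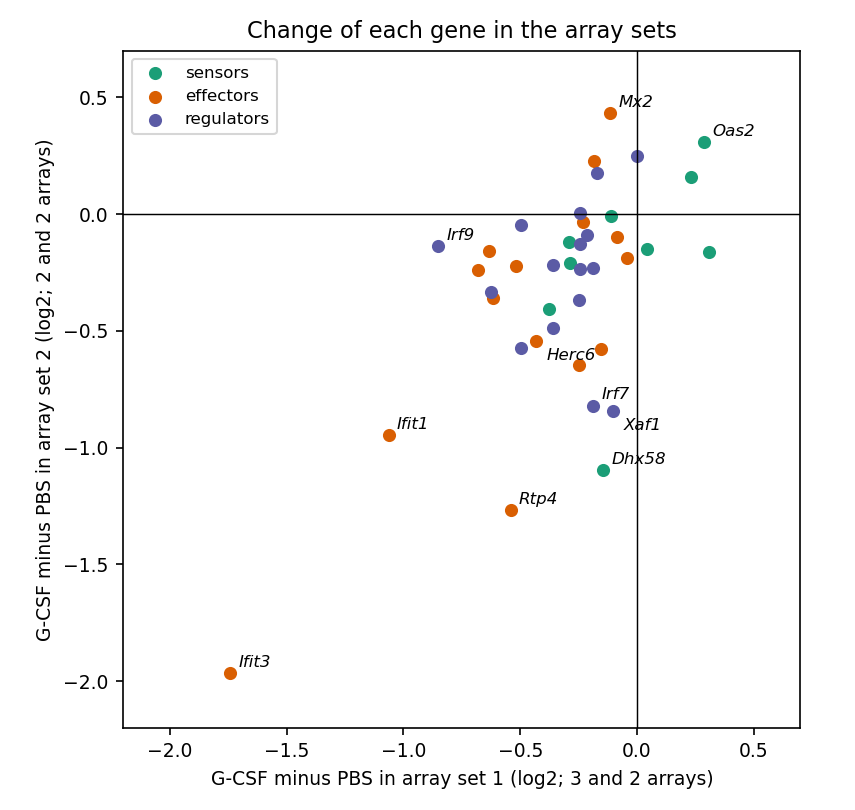
Change of each measured member (G-CSF minus PBS, log2) in array set 1 (horizontal axis) against array set 2 (vertical axis), coloured by role. Of the 40 points, 31 lie in the lower left corner, below 0 on both axes, with Ifit3 farthest from 0 in both sets (-1.74 and -1.97) and Rtp4, Dhx58, Irf7 and Xaf1 further below 0 in set 2 than in set 1.

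The rest of the pathway was read in lists of ligands, receptors, signalling proteins, inhibitors and other targets. Of 23 listed interferon genes 16 were measured and none was called, and their median change was -0.02. Their levels were low, with array means of 4.33 to 4.75 in PBS and 4.43 to 4.74 in G-CSF. The median level of all tested probe sets was 5.42. The lack of a call thus does not show that these genes were expressed and unchanged. All 6 measured receptor subunits were uncalled: Ifnar1 differed by -0.05, Ifnar2 by -0.12, Ifngr1 by -0.09 and Ifngr2 by 0.19. Among 6 receptor signalling genes, Jak2, the kinase of the interferon-gamma receptor and of several cytokine receptors, rose. It measured 7.35, 7.53, 6.98 and 7.38 in PBS and 8.68, 8.42, 8.40, 8.38 and 8.75 in G-CSF, a change of 1.22 (SE 0.16, limma adjusted p = 0.00162). Jak1 and Tyk2, the kinases of the type I receptor, differed by -0.05 and -0.17. Among 9 feedback inhibitors, Ptpn1, a phosphatase that acts on Jak2 and Tyk2, rose from 7.03 ± 0.24 (n = 4) to 8.29 ± 0.16 (n = 5), a change of 1.26 (SE 0.16, limma adjusted p = 0.00137). Socs1, the inhibitor induced by interferon itself, differed by 0.13. Jak2 and Ptpn1 kept their calls in all 9 fits that left out an array, with changes of 1.11 to 1.29 and 1.17 to 1.32, but neither passed within array set 2 alone (limma adjusted p = 0.0998 and 0.144).

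Of 13 measured genes that sense nucleic acid or bacterial products upstream of interferon, none was called. Sting1, the adaptor of cytosolic DNA sensing, differed by 0.89 (limma adjusted p = 0.0796) and Myd88, the adaptor of most Toll-like receptors, by 0.66 (0.0707). Both passed with the array set as a block (limma adjusted p = 0.0286 and 0.0464), where 1.32% of all tested probe sets were higher. The RNA helicase Ddx58 (RIG-I) differed by -0.37 (limma adjusted p = 0.344).

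Among 53 measured interferon-induced genes outside the list of 44, 39 had a change below 0 (median -0.21), where 48.7% of all tested probe sets did. Of the 53, 2 fell, 1 rose and 50 were not called, where 0.877% of all tested probe sets were called lower and 0.743% higher. Cxcl9, a chemokine of the interferon-gamma response, measured 10.21, 11.15, 9.96 and 10.31 in PBS and 8.64, 9.49, 8.07, 8.15 and 9.24 in G-CSF. It fell by 1.69 on the log2 scale (SE 0.32, limma adjusted p = 0.0194), and no arrays overlapped. Its G-CSF 2 and 5 arrays were the highest of the treated, as they were for Ifit3 and Ifit1. The call was lost without PBS 2, PBS 4, G-CSF 1 or G-CSF 4, with limma adjusted p up to 0.0545. Its relative Cxcl10 differed by -1.48 (SE 0.48, limma adjusted p = 0.224), with overlapping groups. Casp1, the inflammasome protease, went from 7.44 ± 0.21 (n = 4) to 6.69 ± 0.23 (n = 5), a change of -0.75 (limma adjusted p = 0.0399). That call was kept in 1 of the 9 fits, the one without PBS 2. Neither Cxcl9 nor Casp1 passed when all probe sets entered the fit (limma adjusted p = 0.0893 and 0.108) or within either array set alone.

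The interferon-induced transmembrane proteins, which block fusion of viral and cell membranes, split. Ifitm1 measured 8.19, 8.01, 8.60 and 8.52 in PBS and 11.12, 10.70, 11.31, 11.21 and 11.20 in G-CSF, so it stood far above the controls in every treated array. Its change of 2.78 was the largest of any listed interferon-induced gene and opposite in sign to that of Ifit3 and Rtp4 (SE 0.18, limma adjusted p = 6.88e-06). Ifitm2 differed by 0.26 (limma adjusted p = 0.750) and Ifitm3 by -0.03 (0.992). Hybridisation between these related genes was not tested.

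Markers of the sorted cells and of other cells were read in lists. Calls were made among CAR cell, neutrophil, B cell precursor and erythroid markers only. CAR cell markers were present, with Cxcl12 at 12.35 ± 0.11 in PBS, and their list mean was 10.47 to 10.70 in PBS and 9.69 to 9.74 in G-CSF. Of these 10 markers, 9 had a change below 0 and 6 were called lower. Among all tested probe sets, 48.7% had a change below 0, 0.877% were called lower and 0.743% higher. The 6 called markers ranged from -2.08 (Il7) to -0.66 (Ebf3). The 4 not called were Foxc1 (-0.88), Cxcl12 (-0.36), Lepr (-0.22) and Pdgfrb (0.01). The lower list mean thus does not describe every marker. All 17 measured neutrophil markers had a higher treated mean (array means 7.39 to 8.78 in PBS and 8.34 to 9.08 in G-CSF), of which Mmp9 was called. All 6 pan-hematopoietic markers also had a higher treated mean, in both array sets (median change 0.64, array means 6.12 to 6.75 in PBS and 6.33 to 7.27 in G-CSF), and none was called. No call was made among 14 macrophage markers (5.02 to 5.48 and 4.88 to 5.26), 5 markers of plasmacytoid dendritic cells (4.66 to 5.07 and 4.86 to 5.09), the main source of type I interferon in blood, 8 markers of T and NK cells (3.56 to 4.08 and 4.00 to 4.07) or 9 of endothelium (4.61 to 5.01 and 4.58 to 4.88). Of the macrophage markers, 9 had a change below 0 and 5 above. For C1qb (-0.77) and Mertk (-0.64) all treated arrays lay below all controls, as they did for 2.46% of all tested probe sets. Both passed with the array set as a block (limma adjusted p = 0.0183 and 0.0278). The endothelial Emcn also passed there, as higher (0.70, limma adjusted p = 0.0471). With that block 1.43% of all tested probe sets were lower and 1.32% higher. Of 9 B cell precursor markers, 3 were called lower and 6 were not called (array means 4.66 to 5.00 and 4.14 to 4.47). Of 8 erythroid markers, 2 were called lower and 6 were not called (4.99 to 5.86 and 4.34 to 4.83). These values carry no detection call, so no marker is at 0. Their part in the changes of the interferon-stimulated genes was not tested.

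**Figure D5:**
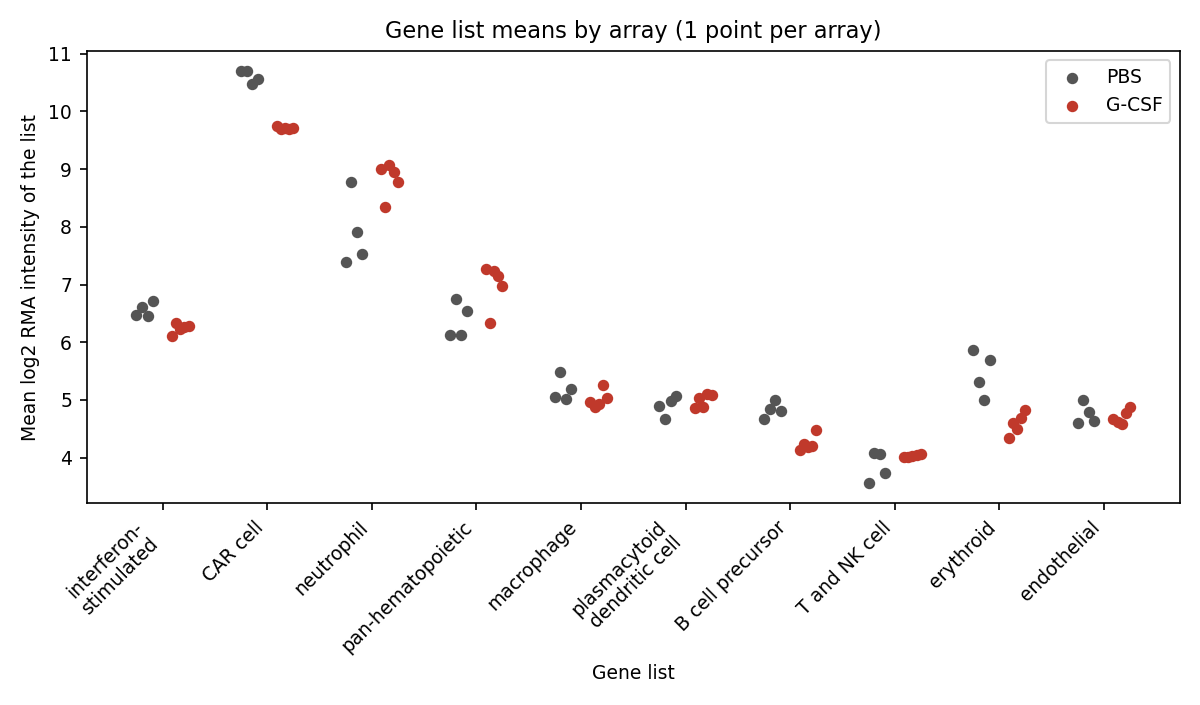
Mean log2 intensity of the 40 interferon-stimulated genes and of 9 marker lists in each array, PBS in grey (4 arrays) and G-CSF in red (5 arrays), 1 point per array. The interferon-stimulated genes (6.45 to 6.71 against 6.11 to 6.34) and the list means of CAR cell (10.47 to 10.70 against 9.69 to 9.74), B cell precursor and erythroid markers are lower in every treated array than in any control, while neutrophil markers overlap between the groups. Levels of different lists are not comparable.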

How the data were processed

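Gene expression in 9 samples of sorted marrow stromal cells (4 PBS, 5 G-CSF) was measured on 1-colour arrays after amplification of the RNA. The submitters' processing notes name RMA and Affymetrix Expression Console as the authors' tools for the deposited intensity values. Their versions are not given in the sources used here. They were on a linear scale (1.73 to 15673), so log2 was taken here. RMA scales arrays to a shared distribution, so changes are relative to other transcripts, and it gives no detection call. The deposited values still differed in spread, with an interquartile range from 2.45 in PBS 3 to 2.99 in PBS 1 on the log2 scale. After a further quantile normalisation, Ifit3 and Rtp4 were again the called members.

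Of 35553 probe sets, 21789 carried 1 symbol in the platform table, 1621 several and 12143 none. The 21789 were tested with limma 3.58.1 (lmFit, eBayes, two-sided, no covariate) in R 4.3.3, with Benjamini-Hochberg adjustment over all of them and a call at adjusted p under 0.05. Where a gene had several probe sets, the one with the highest mean was used. All 40 symbols matched the RefSeq gene table. The fit was also run on simulated data whose noise was independent between genes and arrays. Such data hold no array sets, so the run cannot tell how the fit handles them.

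The members, roles and lists, and the rule for named genes, were chosen with earlier results of these data known. By that rule all members are named, and values in every array are given for called members, for the 3 largest rises and falls of each role, and for Stat2, Irf9, Irf7, Irf1, Ifit1 and Usp18. From the pathway lists it names called genes, the main receptors and kinases, Socs1 and Ifitm1 to Ifitm3. Sting1, Myd88, Ddx58 and Cxcl10 were added after their values were seen. Alternatives covered the probe sets tested, normalisation, array weights, blocks, thresholds and each array left out. Same-numbered replicates did not deviate together in every pair (correlations 0.28, 0.14, -0.28 and 0.35), so the numbers were not taken as pairs. The number of arrays limits the precision.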

Additional observations from a re-analysis of the deposited data

Results flagged for a closer look

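A single array stood far from the rest of its group in 4 of the 108 groups examined, where chance flags about 1 in 20. Oas1a was 5.55 in G-CSF 5, with the other treated arrays at 5.10 to 5.16. Gbp3 was 6.09 in PBS 3, with the other controls at 6.72 to 6.73. Rtp4 was 7.45 in G-CSF 5, with the other treated arrays at 7.74 to 7.85. Ifngr1 was 9.09 in PBS 3, with the other controls at 9.39 to 9.43.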

How the results depend on the processing

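Over 23 alternatives, 859 of 911 values of the members kept their direction and side of the threshold, and most of these belong to members never called. Of the rest, 22 lost a call, 3 gained one and 27 turned sign, the last not called in either fit. All 22 lost calls were of Ifit3 and Rtp4, the only members called in the main fit, and the 3 gains were of Ifit1. Among the 9 fits that left out an array, Ifit3 stayed called in 3 and Rtp4 in 2. The median change of all members stayed between -0.35 and -0.21, and that of the sensors ranged from -0.27 to 0.061. The main fit called 353 probe sets, 191 lower and 162 higher, and 2 members, both lower. Counting probe sets in either direction and then members lower, fitting all probe sets gave 181 and 0. Array set 1 alone gave 202 and 0, array set 2 alone 59 and 0, a 2-fold minimum 210 and 1, and the array set block 598 and 2. Averaging G-CSF 4 and 5 left 1 member lower (Ifit3). The replicate block gave 180 and 1 (Ifit3), with Rtp4 at -0.82 (limma adjusted p = 0.115), but it leaves G-CSF 5 without a partner. Leaving out 1 array gave 210 to 318 probe sets called in either direction and 0 to 2 members called lower. Signs turned with array weights for Oasl2 (0.012), Isg20 (0.13), Jak1 (0.049) and Ifitm3 (0.024), with the array set block for Isg20 (0.0029) and with quantile normalisation for Irf8 (0.0048). In set 1 they turned for Oasl2 (0.041) and Mx2 (-0.11), and in set 2 for Eif2ak2 (-0.16), Isg20 (0.23), Irf8 (0.18), Parp14 (0.0036), Ifnar1 (0.14), Ifnar2 (0.083), Ifngr1 (0.015) and Ifitm3 (0.021). With 1 array left out, ranges crossing 0 were -0.093 to 0.26 (Eif2ak2), -0.044 to 0.25 (Oas3), -0.22 to 0.11 (Zbp1), -0.27 to 0.073 (Oasl2), -0.31 to 0.13 (Isg20), -0.12 to 0.31 (Mx2), -0.027 to 0.20 (Irf5), -0.051 to 0.046 (Irf8), -0.28 to 0.043 (Parp14), -0.12 to 0.017 (Ifnar1), -0.13 to 0.047 (Jak1) and -0.083 to 0.038 (Ifitm3). Where a call or sign depended on a setting, the cause was not tested.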

Other observations

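The ISRE core was also looked up in genes outside the member list. Of 594 other tested genes whose RefSeq promoter holds it, 8 fell (1.35%) and 6 rose (1.01%), with a median change of -0.0012. Of 14989 without it, 116 fell (0.774%) and 102 rose (0.68%), with a median of 0.0060. The genes with a match that fell were Dhrs3 (-1.81), Agmo (-1.14), Plxnc1 (-1.06), Ifit3b (-0.94), Ebf1 (-0.91), Igf2 (-0.86), Fbln5 (-0.69) and Selenop (-0.68). Those that rose were Saa3 (2.68), an acute phase protein, Inhbb (1.79), Mmp13 (1.70), a collagenase, Tgm1 (1.37), Gm5150 (1.15) and Fcgr4 (1.09). None of these genes is on the interferon lists used here, and they are given as values with no test of the difference between the sets.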
